A study of Mus musculus with 3 samples.

Results

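The Ly49 receptors were followed through 7 genes, Klra1, Klra4, Klra5, Klra6, Klra7, Klra8 and Klra9, of the 11 Klra genes among 33696 genes listed in the count matrices. They were chosen by name for their pattern in these libraries, Klra4 and Klra8 against Klra1, Klra5, Klra6 and Klra7, so all levels across cell classes are a description and no test was run on them. Single-cell RNA-seq was made from live CD45+ cells sorted from tumors that the KP1 line, derived from mouse small cell lung cancer, formed under the skin of B6129SF1/J F1 mice labelled wild-type. There were 3 libraries, 1 per treatment. The mono-IL-10 library (treatment label Supermono-10) and the IL-10/2-Trikine library came from mice that received 3 µg of the respective cytokine on alternate days, starting on day 7 and ending on day 19, although the description of the KP1 treatment elsewhere in the study has the cytokine start earlier. The mice of the combination library received the Trikine and, on days 7, 11, 15 and 19, 200 µg of anti-PD-1 antibody as well. Tumors were taken on day 19. The protocol text can also be read as giving antibody to every mouse, and the sample titles, which name it for the combination alone, were followed. The sources used here do not say how many mice were pooled in a library, and no untreated library was analysed here. With 1 library per treatment, a treatment, its mice and its library cannot be told apart, and every interval below is a 95% interval for counting error alone.

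Ly49 receptors are lectin-like surface receptors of mouse natural killer (NK) cells and of some T cells that recognise MHC class I or related molecules. Inhibitory members carry a tyrosine motif (ITIM) in the cytoplasmic tail and recruit phosphatases such as Ptpn6. Activating members lack it and signal through an adaptor, Tyrobp, that carries the activating motif. Each NK cell turns on its own subset of the family, a property called variegated expression. Klra4 encodes Ly49D and Klra8 encodes Ly49H, the activating receptor known for recognising a mouse cytomegalovirus protein. Klra1, Klra5, Klra6, Klra7 and Klra9 encode the inhibitory receptors Ly49A, Ly49E, Ly49F, Ly49G and Ly49I.

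The 7 genes lie on the minus strand of chromosome 6 (GRCm38, GENCODE annotation), from Klra5 at chr6:129898996-129917650 to Klra1 at chr6:130363917-130386874. The first 60 coding bases of each gene were read from that reference, because they show the difference by which the family divides. Codon 8, in capitals, is the tyrosine codon of the ITIM in the inhibitory members, and each window lies within 1 coding exon.
Klra4: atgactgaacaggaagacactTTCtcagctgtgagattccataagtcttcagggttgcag
Klra8: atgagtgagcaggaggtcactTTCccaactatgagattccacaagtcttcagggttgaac
Klra1: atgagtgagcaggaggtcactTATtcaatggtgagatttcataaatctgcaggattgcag
Klra5: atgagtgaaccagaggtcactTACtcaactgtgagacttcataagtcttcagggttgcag
Klra6: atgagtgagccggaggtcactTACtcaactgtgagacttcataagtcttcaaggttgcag
Klra7: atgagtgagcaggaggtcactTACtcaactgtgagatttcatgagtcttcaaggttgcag
Klra9: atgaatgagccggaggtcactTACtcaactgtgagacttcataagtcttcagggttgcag
Klra4 and Klra8 hold a phenylalanine codon (TTC) where the other members hold a tyrosine codon (TAT or TAC). The windows lie at chr6:130065243-130065302 for Klra4 and chr6:130128101-130128160 for Klra8. Those of the inhibitory members lie at chr6:130380603-130380662 (Klra1), chr6:129911402-129911461 (Klra5), chr6:130025160-130025219 (Klra6), chr6:130231558-130231617 (Klra7) and chr6:130191242-130191301 (Klra9). Over the whole coding sequence, Klra4 was closer to the inhibitory Klra1 (88.0% identical bases) than to Klra8 (77.4%), and Klra8 shared 91.9% with Klra9. Klra9 shared 95.9% with Klra3 and 96.9% with Klra10, which are Klra genes outside the 7. Since the libraries read transcript ends, identity was also counted over the last 500 transcript bases. No stretch of 90 bases from there was shared with another Klra gene for any member but Klra9 (1.95% of its stretches). At 50 bases the shared part was 40.8% for Klra9, 13.1% for Klra8, 5.76% for Klra1, 4.66% for Klra4 and 0% for Klra5, Klra6 and Klra7, so Klra9 counts are the least certain to be its own. F1 mice also carry the 129 haplotype, whose Ly49 genes differ, and how its reads were divided among the members was not tested.

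The files held 158570946 to 197176873 unique molecules (UMIs) per library and 22235 to 26967 cells were kept, with 4273 to 5562 UMIs per cell at the median. Between 137 and 180 cell barcodes were shared by each pair of libraries, at most 0.793% of a library. The labels call the cells T cells, but B cells, myeloid cells and cells with KP1 tumor markers were also present. NK cells were the Cd3-negative cells (no Cd3d, Cd3e or Cd3g UMI) of cluster 3, the 1 cluster named NK cell-like by its markers, 609, 940 and 1371 cells in the mono-IL-10, IL-10/2-Trikine and combination libraries, the order used throughout, with 3722, 3178.5 and 3052 UMIs at the median. The 14 NK markers summed to 27896, 33292 and 32046 CPM in them (CPM being the gene's UMIs scaled to 1000000 UMIs of the class), against 1573, 3658 and 2427 CPM in B cells. Ncr1, which encodes the NK receptor NKp46, was at 806, 636 and 578 CPM. Of the T cell receptor genes, Trac was at 29.3 to 40.6 CPM there, Trbc1 at 292, 305 and 259 CPM and Trbc2 at 221, 244 and 249 CPM. A Trbc1 UMI was found in 61.2%, 57.0% and 48.7% of these cells, and 109, 203 and 313 of them held no T cell receptor, Cd4 or Cd8 UMI at all. A Trdc UMI was found in 17.7% to 19.4% of these cells, so Trdc transcripts alone did not mark gamma-delta T cells.

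The Cd3-positive cells with NK receptors came from cluster 7. It met 7 of the NK markers but was left unnamed, because none of its 10 leading genes was an NK marker, while Trdc among them marks gamma-delta T cells. It was led by genes such as Ikzf2, Trgv1, Zbtb16 and Klra6, although no Klra gene was used to make the clusters. Its Cd3-positive cells were divided into those with a Trdc UMI (85, 354 and 225) and those without (456, 1278 and 1142). Trac was at 946 to 990 CPM in the cells without Trdc. CD8 cells numbered 2916, 3218 and 2703 and CD4 cells 1278, 2104 and 3266, both taken from T cell-like clusters by their Cd3, Cd8 and Cd4 UMIs.

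RNA free in the suspension carried Ly49 transcripts. In droplets of at most 99 UMIs, the 7 members together made 70.4, 396 and 369 CPM, against 3197, 2866 and 2756 CPM in the NK cells. B cells, which should lack these genes, held 36.8, 98.6 and 88.3 CPM and monocyte/macrophage-like cells 29.6, 98.9 and 68.9 CPM. The latter include cluster 13, where 82.8% of 3621 cells held a Cd3e UMI and 10.5% an Ncr1 UMI. Lymphocyte transcripts are thus part of that class, and their part in its Ly49 level was not tested. The background was thus higher in both Trikine libraries than under mono-IL-10. Free RNA makes up only part of the UMIs of a cell. A cell level below that of the droplets can therefore hold transcripts of the cell itself, and how much was not tested.

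Klra4 and Klra8 were high in NK cells and low in every Cd3-positive class outside the NK cluster. Klra4 was at 836, 704 and 686 CPM in NK cells and at 44.5, 44.4 and 50.6 CPM in the Trdc-negative cells of cluster 7. The NK level was 18.8-fold (15.3 to 23.3), 15.9-fold (14.1 to 17.9) and 13.6-fold (11.9 to 15.5) the level in those cells. Klra8 was at 577, 410 and 425 CPM in NK cells and at 16.1, 11.0 and 10.7 CPM in the Trdc-negative cells. Its ratios were 35.9 (25.7 to 51.8), 37.3 (29.8 to 47.2) and 39.6 (30.2 to 53.1). In the Trdc-positive cells Klra4 was at 50.2, 41.0 and 32.0 CPM and Klra8 at 33.5, 4.10 and 16.0 CPM, the latter from 14, 7 and 18 UMIs. In CD8 cells Klra4 stayed at 3.14 to 5.43 CPM and Klra8 at 0.649 to 2.45 CPM, below the free RNA of each library. The ranges in NK cells and in the Cd3-positive classes of cluster 7 did not overlap for either gene. Both genes were chosen on these classes, so nothing is read from this. How many of all genes lacked such overlap was not counted. In the droplets Klra4 was at 9.45, 32.4 and 55.8 CPM and Klra8 at 7.04, 23.0 and 32.6 CPM, so that in the combination library both genes were lower in the Trdc-negative cells than in the free RNA, as Klra8 also was under IL-10/2-Trikine.

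The inhibitory Klra1, Klra5 and Klra7 were found both in NK cells and in cluster 7. Klra1 was at 296, 266 and 281 CPM in NK cells, 187, 313 and 256 CPM in the Trdc-negative cells and 139, 193 and 166 CPM in the Trdc-positive cells. Klra5 was at 156, 260 and 226 CPM in NK cells, 107, 343 and 226 CPM in the Trdc-negative cells and 172, 368 and 229 CPM in the Trdc-positive cells. For both genes the NK level was the higher one under mono-IL-10 and the lower one under IL-10/2-Trikine, set against the Trdc-negative cells, with ratios of 1.58 and 0.85 for Klra1 and of 1.45 and 0.76 for Klra5. In the combination library Klra5 was equal within its interval (ratio 1.0, 0.918 to 1.09). Klra7 was at 731, 764 and 688 CPM in NK cells and at 297, 602 and 407 CPM in the Trdc-negative cells, higher in NK cells in each library. In the Trdc-positive cells it was at 253, 410 and 314 CPM, and the NK level was 2.89, 1.86 and 2.19 times as high.

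Klra6 ran the other way. It was at 25.6, 20.3 and 25.6 CPM in NK cells, from 62, 72 and 118 UMIs, and at 142, 251 and 191 CPM in the Trdc-negative cells of cluster 7. In the Trdc-positive cells it was at 62.1, 157 and 132 CPM. The NK level was 0.181 (0.135 to 0.238), 0.0807 (0.0629 to 0.102) and 0.134 (0.110 to 0.163) of the Trdc-negative level. In droplets of few UMIs Klra6 was at 4.4, 37.8 and 24.6 CPM. Its NK level was clearly above that of the free RNA only under mono-IL-10, and the part of free RNA in it was not tested. Klra9, inhibitory but outside the contrast, followed the activating pair instead, with 577, 441 and 424 CPM in NK cells and 46.3, 85.8 and 72.1 CPM in the Trdc-negative cells. Its order in these classes was shared by the near-identical Klra3, at 249, 232 and 241 CPM in NK cells and 36.2, 54.3 and 41.9 CPM in the Trdc-negative cells. Klra10 was at 16.9 to 27.7 CPM in NK cells and at 2.01 to 2.29 CPM in the Trdc-negative cells.

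Between NK cells and the Trdc-negative cells of cluster 7, 3 or 4 of the 7 members were at least 2-fold higher in NK cells in each library. These were Klra4, Klra8 and Klra9 in all 3 libraries and Klra7 also under mono-IL-10. Over all genes with at least 20 UMIs in the pair, 5.08%, 4.91% and 4.84% were at least 2-fold higher and 9.01%, 8.50% and 9.30% at least 2-fold lower. Klra6 was the 1 member at least 2-fold lower. The members were chosen on these classes, so nothing is read from the counts.

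**Figure D1:**
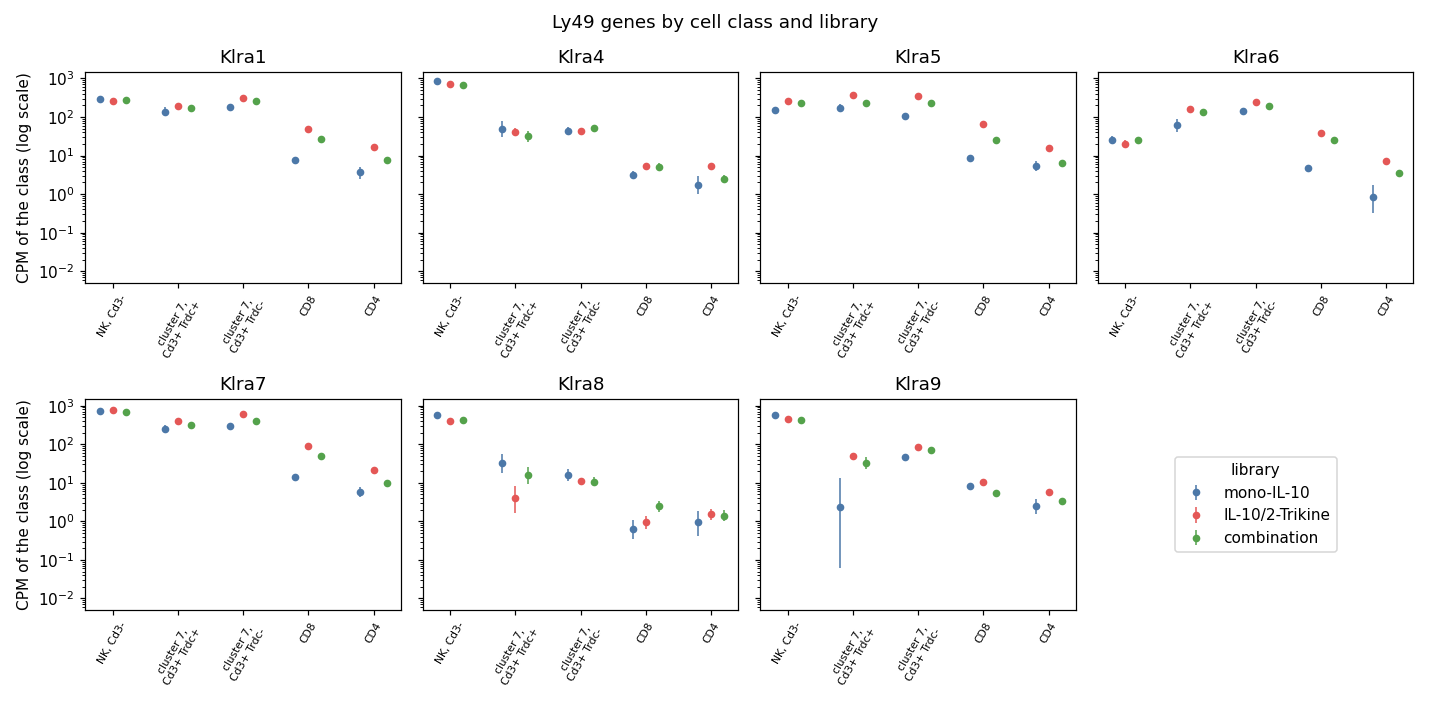
Level of each Ly49 gene in CPM (log scale) in 5 cell classes, with 1 point per library and bars for the exact Poisson 95% interval. Klra4 and Klra8 drop from NK cells to cluster 7 in each library, Klra6 is higher in cluster 7 than in NK cells, and the CD8 and CD4 points lie lower than the NK points for all genes but Klra6, whose CD8 level (4.79, 39.4 and 25.2 CPM) is above or near its NK level in both Trikine libraries.

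The balance of the contrast was expressed as the share of Klra4 and Klra8 UMIs among the UMIs of Klra1, Klra4, Klra5, Klra6, Klra7 and Klra8. Klra9, also inhibitory, is left out of this activating share. In NK cells it had 1397, 1567 and 1952 UMIs, beside 3421, 3957 and 5114 of Klra4 and Klra8, so the share would be lower with Klra9 counted. In NK cells this activating share was 53.9% (52.7 to 55.1), 45.9% (44.9 to 47.0) and 47.7% (46.7 to 48.6). In the Trdc-negative cells of cluster 7 it was 7.63% (6.42 to 8.98), 3.54% (3.21 to 3.89) and 5.37% (4.80 to 5.99), and in the Trdc-positive cells 11.8%, 3.84% and 5.39%. The gap between both kinds of cluster 7 cells was thus small beside the gap to NK cells. The Cd3-positive cells of the NK cluster itself (244, 535 and 932) held 46.2%, 28.1% and 34.0%, between both. Of these cells 6.56%, 9.16% and 10.5% were among the 10% highest doublet scores of their library, against 0.851% to 1.31% of the Cd3-negative NK cells and 5.04%, 6.26% and 5.69% of the Trdc-negative cells of cluster 7, and the part of doublets in their intermediate share was not tested. Pooled over both clusters, the Cd3-positive, Trdc-negative cells held 28.2%, 9.90% and 20.4%. In the droplets of few UMIs the share was 26.8%, 15.2% and 26.8%. CD8 cells lay below the droplets of their own library, at 9.61%, 2.55% and 5.64%, and CD4 cells at 14.7%, 10.2% and 12.5%. In each of these cell classes the mono-IL-10 library had the highest share and the IL-10/2-Trikine library the lowest. The intervals of all 3 libraries overlapped in CD4 cells. Those of IL-10/2-Trikine and the combination overlapped in NK cells and in the Trdc-positive cells of cluster 7 (3.05 to 4.78 and 4.08 to 6.98). The same order was found in B cells (31.4%, 6.98% and 15.3%), which should lack these genes. It was also found in monocyte/macrophage-like cells (25.2%, 11.1% and 24.7%), part of which carried lymphocyte transcripts. In monocyte/macrophage-like cells the intervals of mono-IL-10 and the combination overlapped, and in B cells those of IL-10/2-Trikine and the combination. The part of free RNA in this order was not tested.

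**Figure D2:**
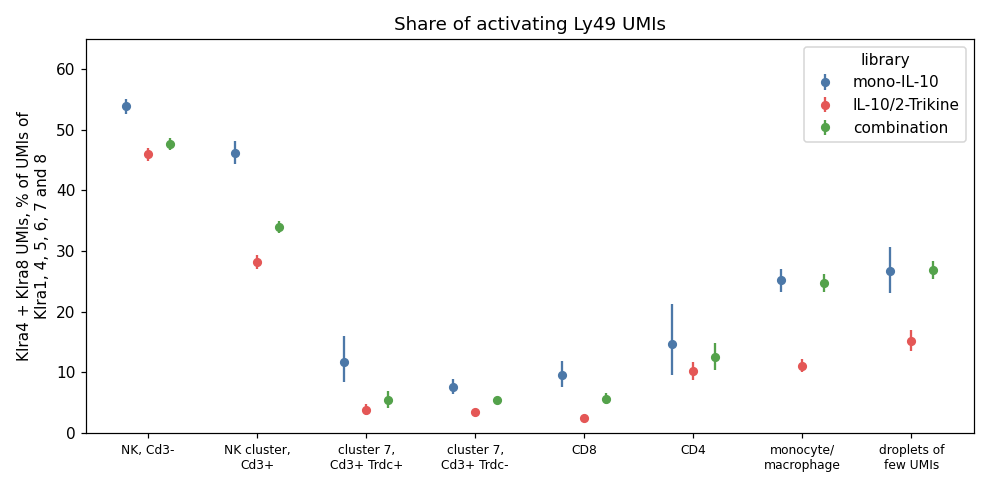
UMIs of the activating genes Klra4 and Klra8 as a percent of those of Klra1, Klra4, Klra5, Klra6, Klra7 and Klra8, without Klra9. Values are by cell class and library, with exact binomial 95% intervals and free RNA in droplets of few UMIs at the right. NK cells lie between 45.9% and 53.9%, and both classes of cluster 7 between 3.54% and 11.8%.

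Per the study, mono-IL-10 is an engineered monomeric IL-10. The Trikine links it to a non-agonist IL-2 variant that recruits the IL-2 receptor beta chain. The comparison of IL-10/2-Trikine with mono-IL-10 asks what this added part does. In NK cells none of the 7 members was 2-fold apart, against 2.93% of 9754 genes at least 2-fold higher and 2.66% at least 2-fold lower. Klra5 was the member furthest apart, at 1.67 times (1.48 to 1.89) its mono-IL-10 level. Klra8 was at 0.711 (0.660 to 0.765), Klra9 at 0.765 (0.711 to 0.823) and Klra4 at 0.843 (0.794 to 0.894). Klra1 was at 0.90 (0.816 to 0.993) but at 0.45 on the log2 scale, in the opposite direction, in NK cells without T cell receptor, Cd4 or Cd8 UMIs, and the intervals of Klra6 (0.556 to 1.13) and Klra7 (0.983 to 1.11) included 1. All 7 members summed to 0.896 (0.870 to 0.923), with the median gene at -0.07 on the log2 scale. The activating pair together was at 0.789 (0.753 to 0.826) and the 4 inhibitory genes of the contrast at 1.08 (1.04 to 1.14).

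The same comparison in the Trdc-negative cells of cluster 7 gave higher inhibitory levels. Klra5 was at 3.19 times (2.79 to 3.66) and Klra7 at 2.03 times (1.87 to 2.21) its mono-IL-10 level, the 2 members past 2-fold, where 3.63% of 10724 genes were at least 2-fold higher and 5.25% at least 2-fold lower (389 and 563 genes). With TMM scaling these were 580 and 353 genes, and Klra9 became the third member past 2-fold, at 2.07. Klra9 was at 1.85 (1.5 to 2.31), Klra6 at 1.77 (1.57 to 2.01) and Klra1 at 1.67 (1.5 to 1.86). Klra4, at 0.997 (0.793 to 1.26), and Klra8, at 0.685 (0.456 to 1.05), did not share this. The median gene lay at -0.13 on the log2 scale, so relative to it each of these ratios is slightly larger. The free RNA of the inhibitory genes was also higher in the IL-10/2-Trikine library, with Klra5 at 5.61 CPM under mono-IL-10 and 86.8 CPM here, beside 107 and 343 CPM in these cells. The summed level of the 14 NK markers differed in the same direction, with 6975 and 14033 CPM. The part of either in the ratios was not tested. The difference depends on the cells counted. In the Cd3-positive, Trdc-negative cells of the NK cluster, the sum of the 7 members differed by only 0.04 on the log2 scale. The Trdc-positive cells of cluster 7 gave 1.80 (1.58 to 2.06) for the 4 inhibitory genes and 0.539 (0.357 to 0.829) for the activating pair, from 35 activating UMIs under mono-IL-10. There Klra8 was at 0.123 (0.0419 to 0.325), and Klra9, with a single UMI under mono-IL-10, at 20.4 (3.55 to 813).

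The comparison of the combination with IL-10/2-Trikine shares the IL-10/2-Trikine library with the one above and asks what anti-PD-1 adds. In NK cells again none of the members was 2-fold apart, against 1.93% of 10203 genes higher and 2.09% lower. Klra5 was at 0.867 (0.793 to 0.948), but at 0.016 on the log2 scale in NK cells without T cell receptor, Cd4 or Cd8 UMIs, and Klra7 at 0.90 (0.855 to 0.948), while the intervals of Klra1, Klra4, Klra6, Klra8 and Klra9 included 1. Nor was any member 2-fold apart in the Trdc-negative cells of cluster 7, with 2.79% of 11139 genes higher and 1.45% lower (311 and 161 genes, or 254 and 220 with TMM scaling). Klra5 was at 0.659 (0.614 to 0.708), Klra7 at 0.676 (0.641 to 0.713), Klra6 at 0.76 (0.702 to 0.822) and Klra1 at 0.818 (0.763 to 0.877). Klra4 (0.964 to 1.35) and Klra8 (0.678 to 1.40) had intervals that included 1. The 4 inhibitory genes were thus lower with the antibody than without it, and all of them stayed above their mono-IL-10 levels. The free RNA of these 4 genes differed in the same direction (310 and 241 CPM), as did the summed NK markers of the cells (14033 and 10367 CPM), and the part of either was not tested. In the Cd3-positive, Trdc-negative cells of the NK cluster this was not so for the sum of the 7 members and for Klra1, each at 0.040 on the log2 scale, and with both clusters pooled the sum was at -0.13 in place of -0.44.

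**Figure D3:**
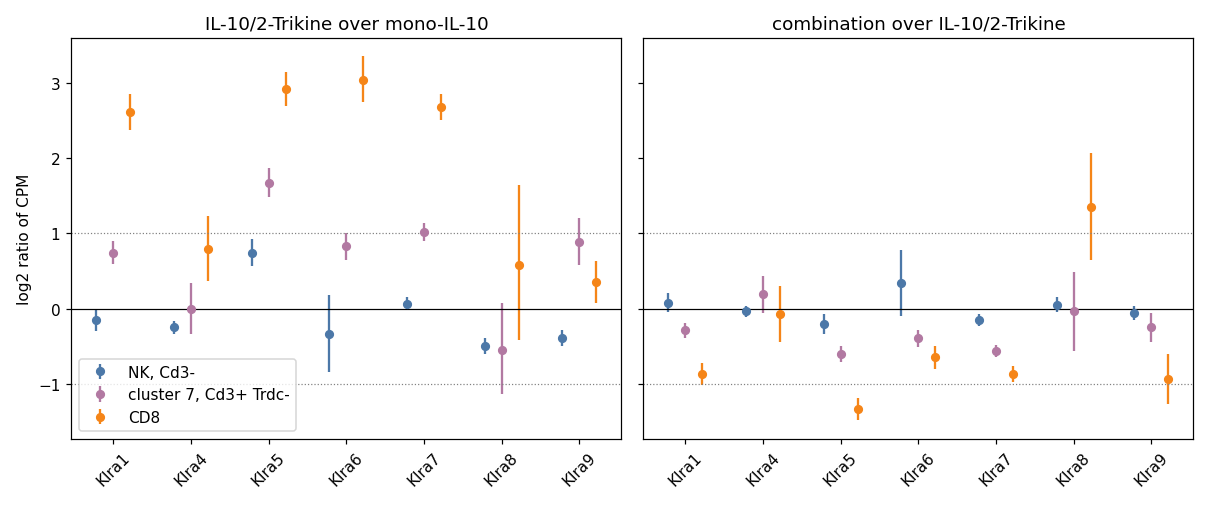
Log2 ratio of CPM between libraries for each Ly49 gene in 3 cell classes, with exact conditional binomial 95% intervals; dotted lines mark 2-fold. In NK cells all 7 genes lie inside the dotted lines in both panels, and the CD8 points of Klra1, Klra5, Klra6 and Klra7 lie between 2.61 and 3.04 in the left panel.

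As gated here, CD8 cells held few Ly49 transcripts. The levels of the 4 inhibitory genes of the contrast differed between libraries by more than in any class above. The class leaves out cells with Cd8a in unnamed clusters. These were 30.5%, 26.1% and 24.5% of the Trdc-negative cells of cluster 7 and 46.2% of the cells of cluster 8, whose Ly49 levels are given at the end. In the CD8 class the 7 members together were at 47.5, 261 and 141 CPM, below the free RNA of the same library in each case. Klra1, Klra5, Klra6 and Klra7 were 6.11 (5.18 to 7.25), 7.54 (6.45 to 8.86), 8.23 (6.68 to 10.2) and 6.4 (5.66 to 7.24) times their mono-IL-10 level in the IL-10/2-Trikine library. These were 4 members past 2-fold, where 3.27% of 13335 genes were at least 2-fold higher and 7.27% lower (436 and 970 genes), and the median gene was at -0.14 on the log2 scale. With TMM scaling 747 genes were higher and 665 lower, and Klra4 became the fifth member past 2-fold, at 2.01. Klra4 was at 1.73 (1.28 to 2.35) with the scaling used throughout and Klra8 at 1.49 (0.750 to 3.12). The Klra4 ratio changed direction, to -0.37 on the log2 scale at a finer clustering and to -0.43 both with a marker gate per cell and without cells that held an Mki67 UMI. Under the combination, relative to IL-10/2-Trikine, Klra5 was at 0.395 (0.357 to 0.437) and Klra8, with 45 UMIs against 29, at 2.54 (1.56 to 4.20), against 3.31% of genes at least 2-fold higher and 1.76% lower (433 and 231 genes, or 341 and 293 with TMM scaling, where Klra9 also passed 2-fold lower). With a marker gate per cell the 7 members together were at -0.045 in place of -0.89 on the log2 scale, and Klra1, Klra6 and Klra9 changed direction, to 0.27, 0.32 and 0.47. At a finer clustering Klra9 was at 0.14.

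The free RNA differed between the same libraries, and the make-up of the CD8 class differed too. With each cell thinned to 1000 UMIs, 2.34%, 9.78% and 5.73% of CD8 cells held a UMI of any of 7 members (6.17%, 20.04% and 13.5% without thinning), against 1.87%, 5.66% and 4.02% of B cells and 1.73%, 3.96% and 4.02% of monocyte/macrophage-like cells. The IL-10/2-Trikine value (8.77% to 10.9%) lay above the monocyte/macrophage interval (3.41% to 4.58%) and overlapped that of the 159 B cells (2.62% to 10.5%). Cluster 11, in which 97.7% of cells held a UMI of the proliferation gene Mki67, supplied 16.1%, 50.1% and 26.2% of the CD8 cells. Within it the 7 members were at 76.1, 324 and 203 CPM. Within cluster 14, which supplied 38.4%, 37.3% and 45.2% of the class, they were at 23.8, 58.6 and 58.8 CPM. The ratio was therefore smaller within these clusters than over the class. Without the cells that held an Mki67 UMI it was 1.24 on the log2 scale in place of 2.46. It was 1.499 at the finer clustering and 1.44 with a marker gate per cell. At the finer clustering another cluster was named NK cell-like, with 221, 2141 and 697 cells, none of which counted as CD8 cells there. Of its cells 97.4% held an Mki67 UMI, 49.1% a Cd8a UMI and 23.3% an Ncr1 UMI. The part of such cells in the ratios was not tested. In CD4 cells the 7 members were at 20.9, 74.6 and 34.9 CPM, and 0.947%, 3.14% and 2.13% of cells thinned to 1000 UMIs held one. These shares lay below those of B cells and of monocyte/macrophage-like cells in each library. The activating share of CD4 cells was also below that of the droplets, and where their transcripts came from was not tested.

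Transcripts of more than 1 Ly49 gene were found in the majority of NK cells. After thinning to 1000 UMIs, which left out 3, 27 and 86 shallower cells, 82.8%, 79.8% and 78.5% of NK cells had a UMI of any of 7 members (91.8%, 88.4% and 85.6% without thinning), against 1.87%, 5.66% and 4.02% of B cells. Of the NK cells 28.4%, 26.5% and 27.6% had 2 members and 31.0%, 31.1% and 25.8% had 3 or more. Klra4 was seen in 44.9%, 40.9% and 38.1% of NK cells, Klra7 in 39.8%, 43.6% and 40.5%, and Klra8 in 31.2%, 25.3% and 24.05%. Klra6 was seen in 2.31%, 1.64% and 1.79% of NK cells and in 12.2%, 21.5% and 13.7% of the Trdc-negative cells of cluster 7, beside 0.108%, 0.582% and 0.390% of monocyte/macrophage-like cells. In those Trdc-negative cells 34.3% (29.7 to 39.2), 65.5% (62.8 to 68.2) and 48.0% (44.9 to 51.2) had at least 1 member, 54, 51 and 168 shallower cells being left out. The Klra5 share in NK cells was 8.42%, 14.1% and 11.98%, the same order over libraries as its level.

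Activating and inhibitory genes were often found in the same NK cell. Counting Klra4 and Klra8 against Klra1, Klra5, Klra6 and Klra7, 38.0%, 37.9% and 34.2% of thinned NK cells held both kinds, 20.1%, 13.6% and 14.9% activating only, and 20.5%, 24.5% and 24.6% inhibitory only. Klra9 was not counted, so cells with activating genes only may hold it. Among the Trdc-negative cells of cluster 7, 27.9%, 59.9% and 40.1% held inhibitory genes only and 0.746%, 0.652% and 1.54% activating genes only. A cell with an activating transcript there usually held an inhibitory one as well (4.98%, 3.59% and 5.24% of cells with both).

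**Figure D4:**
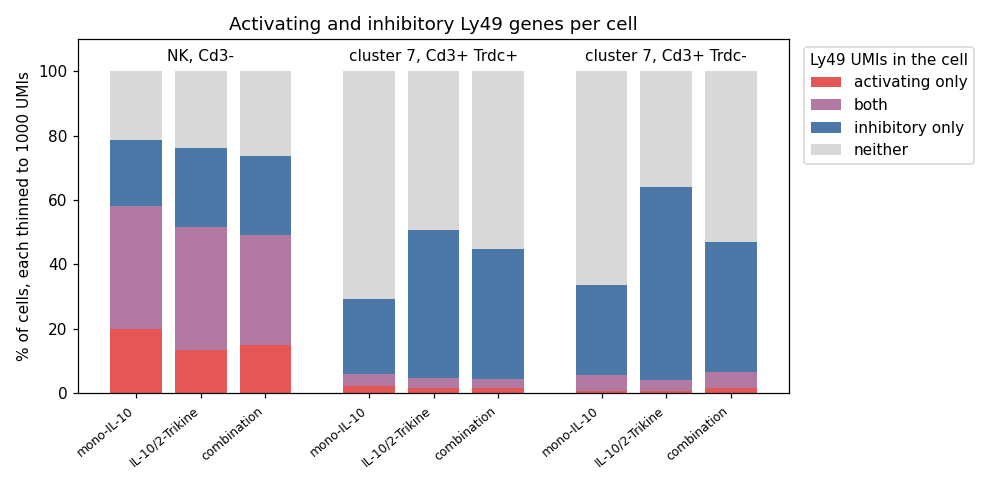
Percent of cells, each thinned to 1000 UMIs, with UMIs of Klra4 or Klra8 only (activating), of Klra1, Klra5, Klra6 or Klra7 only (inhibitory), of both kinds or of neither, by class and library. Klra9 is not counted. Cells with an activating transcript make 49.1% to 58.1% of NK cells and 4.24% to 6.78% of both classes of cluster 7.

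Within NK cells some members were found more often in cells that held a given other member than in cells that did not. Klra8 was found in 40.1%, 35.9% and 34.2% of cells with Klra4 and in 23.95%, 17.96% and 17.8% of cells without it, with intervals that did not overlap in any library. Klra7 was found in 47.4%, 52.3% and 52.1% of cells with Klra4 and in 33.5%, 37.6% and 33.4% of cells without. Klra5 showed no such link to Klra4 (7.35%, 13.7% and 9.61% with, 9.28%, 14.4% and 13.4% without). Klra9 was seen in 56.9%, 40.3% and 35.1% of cells with Klra5 and in 32.8%, 30.5% and 28.1% of cells without, with intervals that overlapped in both Trikine libraries. Cells of a library are not replicates, and these shares describe the cells sequenced.

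Ly49 levels also differed among NK cells divided by genes outside the family. In cells with an Mki67 UMI (58, 104 and 112) the 7 members were at 0.743 (0.686 to 0.802), 0.610 (0.576 to 0.645) and 0.669 (0.631 to 0.710) of their level in cells without, and both activating genes were lower in each library. Klra4 was higher in cells with a UMI of Eomes, a transcription factor of mature NK cells, by 1.43, 1.49 and 1.74 times, and Klra8 by 1.58, 1.26 and 1.69 times. Klra5 did not share this, at 0.948 (0.762 to 1.18), 0.641 (0.561 to 0.732) and 0.90 (0.796 to 1.02).

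Klra5 instead went with Klrg1, a receptor of mature NK cells. Its level was 360, 370 and 305 CPM in NK cells with a Klrg1 UMI and 73.1, 186 and 171 CPM in those without, a ratio of 4.92 (3.96 to 6.15), 1.99 (1.75 to 2.28) and 1.78 (1.57 to 2.02). Klra9 showed smaller ratios of 1.57, 1.40 and 1.24, and the activating pair ones of 0.881 (0.815 to 0.951), 1.007 (0.944 to 1.07) and 0.988 (0.934 to 1.045). Klrg1 itself was at 1.42 times (1.23 to 1.64) its mono-IL-10 level in NK cells under IL-10/2-Trikine. Cells with a UMI of Itga1, a marker of tissue-resident cells, held less Klra4, at 0.814, 0.585 and 0.671. Cells with a UMI of Itgam, which rises with NK maturation, held more of the 7 members together, at 1.13, 1.25 and 1.31. Cells with a UMI of any of these genes had more UMIs at the median than cells without, and the part of depth in these ratios was not tested.

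**Figure D5:**
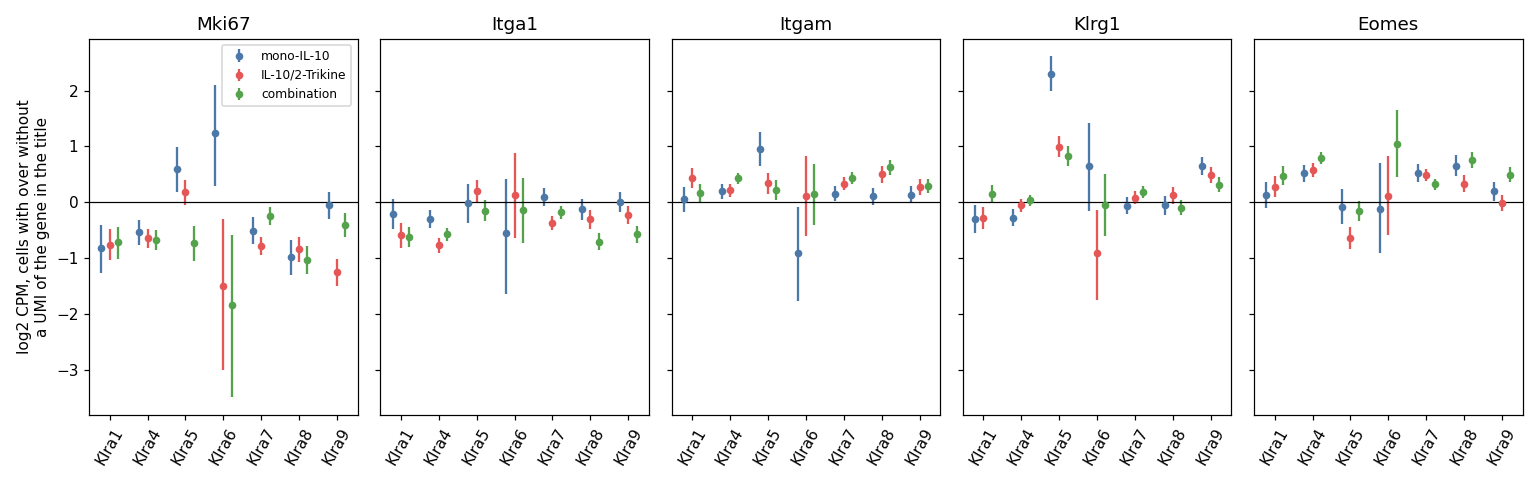
Log2 ratio of each Ly49 gene between NK cells with and without a UMI of Mki67, Itga1, Itgam, Klrg1 or Eomes, by library, with exact conditional binomial 95% intervals. Klra5 lies above 0 in each library in the Klrg1 panel, and Klra4 and Klra8 lie above 0 in each library in the Eomes panel.

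Of 10 genes listed as adaptors and kinases of NK receptor signalling, none was 2-fold apart in NK cells in either comparison. Of all genes, 2.93% and 1.93% were higher and 2.66% and 2.09% lower. The list median was -0.28 for IL-10/2-Trikine over mono-IL-10 and 0.13 for the combination over IL-10/2-Trikine on the log2 scale, beside -0.07 and -0.01 over all genes. Tyrobp, the adaptor of Klra4 and Klra8, was at 0.970 (0.934 to 1.008) in the first. The kinase gene Fyn was at 0.712 (0.666 to 0.762) and the adaptor gene Sh2d1b1 at 0.673 (0.537 to 0.845). The 4 inhibitory phosphatases had a median of -0.48 and none was 2-fold apart, with Ptpn6 at 0.664 (0.540 to 0.816) and Inpp5d at 0.772 (0.706 to 0.845). In the Trdc-negative cells of cluster 7, 1 of the 10 adaptors and kinases was at least 2-fold higher under IL-10/2-Trikine, where 3.63% of all genes were. This was Lat2, at 2.62 (2.01 to 3.47).

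Of 13 measured transcription factors named for Ly49 or NK maturation, 3 were at least 2-fold lower in NK cells under IL-10/2-Trikine than under mono-IL-10 and none higher, against 2.66% and 2.93% of all genes. With TMM scaling 2 were lower, Zeb2 no longer being 2-fold apart. Tcf7, which is known to be needed for normal Ly49 expression, was at 0.458 (0.386 to 0.542), Zeb2 at 0.491 (0.435 to 0.554) and Prdm1 at 0.348 (0.258 to 0.466). Of 13 measured in the Trdc-negative cells, 4 were lower and none higher, against 5.25% and 3.63% of all genes (with TMM scaling 3 of 13, without Eomes, against 353 lower and 580 higher of 10724), namely Tox at 0.293 (0.270 to 0.317), Rora at 0.333 (0.302 to 0.367), Prdm1 at 0.330 (0.244 to 0.447) and Eomes at 0.475 (0.399 to 0.567). The list medians were -0.35 and -0.50, beside -0.07 and -0.13 over all genes. None of this list was 2-fold apart under the combination relative to IL-10/2-Trikine in either class. Of all genes, 1.93% were higher and 2.09% lower in NK cells, and 2.79% higher and 1.45% lower in the Trdc-negative cells.

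For the next lists the shares of all genes at least 2-fold higher and lower in NK cells were 2.93% and 2.66% in the first comparison and 1.93% and 2.09% in the second. Of 10 NK maturation genes none was 2-fold apart in NK cells in either comparison (medians -0.01 and 0.18), with Ly6c2 at 1.44 (1.29 to 1.61) and Itgam at 0.748 (0.663 to 0.845) in the first. Of 10 tissue-resident genes 1 was higher under IL-10/2-Trikine and 1 lower under the combination (medians 0.21 and -0.16), in both cases Cd200r1, from 9, 29 and 15 UMIs, with Itga1 at 1.31 (1.12 to 1.54) and Xcl1 at 0.699 (0.656 to 0.745) in the first. Of 18 other measured genes of the NK gene complex, which neighbour the Ly49 genes on the chromosome or share their lectin fold, 2 were lower under IL-10/2-Trikine (median -0.28) and none apart under the combination (median 0.01). These were Clec2d, at 0.483 (0.415 to 0.562), and Clec2i, at 0.438 (0.320 to 0.597), of which Clec2i alone was 2-fold lower with TMM scaling, while the activation marker Cd69 was at 0.530 (0.488 to 0.575). In the Trdc-negative cells the same lists gave 0 of 9, 1 lower of 10 and 1 lower of 18 in the first comparison. The lower genes were Inpp4b, at 0.404 (0.374 to 0.438), and Cd69, at 0.403 (0.371 to 0.437). Of all genes, 5.25% were lower and 3.63% higher there. No gene of any list was 2-fold apart in the second comparison, where 1.45% of all genes were lower and 2.79% higher. With TMM scaling Klre1 and Klri1 of the NK gene complex were also 2-fold higher in the first.

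Levels over the 15 class sums (5 classes in 3 libraries) were set side by side on the log2(CPM + 10) scale. Klra1 and Klra7 were nearest to each other (Pearson's r = 0.994), Klra4 and Klra8 had r = 0.971 and Klra6 and Klra8 r = -0.0015. Of 4704 genes at 50 CPM or more in a class, Itga2, an integrin gene of NK cells, had the pattern nearest to the summed Klra4 and Klra8 level (r = 0.988), followed by a gene listed only as ENSMUSG00000121360 (0.985), Tnfsf12 (0.984), Aoah (0.984) and Sh2d1b1 (0.982). Itga2 was at a median of 352 CPM in NK cells and 38.3 CPM in the Trdc-negative cells. For the summed Klra1, Klra5, Klra6 and Klra7 level the nearest were Cemip2 (0.955), Gcnt2 (0.945), Ctla2b (0.938), Klrc3 (0.930) and Samd3 (0.923), with Cemip2 at 331 CPM in NK cells and 243 CPM in the Trdc-negative cells. The 15 sums share 3 libraries and their free RNA, and these values are a description.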

How the data were processed

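Per the labels, libraries were made with the 10x 3' v3.1 chemistry. The authors deposited raw matrices of UMI counts for every barcode. The file headers name Cell Ranger 8.0.0, the labels mm10, and the study's methods another version and a newer mouse build with introns counted. The features files were used as given, and coordinates and sequences come from GENCODE on GRCm38.

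A barcode counted as a cell when it held 200 genes or more and no more than 20% of its UMIs were mitochondrial. Cells were clustered with scanpy 1.11.5 (2000 variable genes without any Klra gene, 30 components, 20 neighbors, Leiden resolution 1) and named from fixed markers (3 or more needed). Scrublet's own threshold marked 2852, 0 and 0 cells and was not used; doublets were kept, and removing the 10% highest scores was an alternative. The plan took Cd3-positive NK-receptor cells from NK cell-like clusters. Since cluster 7 was left unnamed (its 10 leading genes held no NK marker but a marker of another type), they were taken from it by number, and the planned form was run as an alternative.

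UMIs were summed per class and library and given as CPM of the class, not divided by gene length, so genes were not ranked against each other. With 1 library per treatment no p-value was computed. Levels have exact Poisson, shares exact Clopper-Pearson and ratios exact conditional binomial 95% intervals. Genes at least 2-fold apart were counted among those with at least 20 UMIs in the pair. This step was tested on simulated data for larger changes in deeper genes only. Genes near the minimum of 20 UMIs, where counting error alone can reach 2-fold, were not covered by that test. Named list genes were the 3 furthest from equal in each list at 50 CPM or more; Tyrobp, Cd200r1, Clec2i and, in cluster 7, Prdm1 and Klri1 were named after their values were seen. Genes of similar pattern were the 5 with the highest r. edgeR 4.0.16 gave the TMM alternative. The members and lists were chosen with earlier results of these data known.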

Additional observations from a re-analysis of the deposited data

Results flagged for a closer look

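Klra2 and Klra17, which encode Ly49B and Ly49Q and lie outside the 7 genes, were seen in cells that the comparisons above do not use. In monocyte/macrophage-like cells Klra2 was at 304, 239 and 297 CPM in the mono-IL-10, IL-10/2-Trikine and combination libraries, against 206, 52.2 and 119 CPM in droplets of few UMIs. Klra17 was at 339, 225 and 354 CPM in the same cells, against 260, 44.0 and 147 CPM in the droplets. In plasmacytoid dendritic cell-like cells Klra17 was at 413, 440 and 348 CPM. In NK cells Klra2 was at 1.13 to 6.30 CPM and Klra17 at 5.63 to 16.5 CPM, below their free RNA in each library. Both were flagged as signal outside the main measurement, above the free RNA of the same library.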

How the results depend on the processing

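No paired analysis was possible because each treatment had 1 library and the labels give no replicate numbers. With 1 library per treatment none was left out, and no result has a check on the spread between mice. The use of cluster 7 for the main Cd3-positive NK-receptor classes was chosen after seeing the data. So were the alternatives that pooled the NK cluster with cluster 7 and that added unnamed clusters rich in T cells to the CD8 class. The alternative that took the Cd3-positive cells of the NK cluster in place of cluster 7 was the planned form. Where a value moved, the cause was not tested.

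The activating share of NK cells was 52.2% in place of 53.9% under mono-IL-10 in cells without T cell receptor, Cd4 or Cd8 UMIs (109 cells), and in the IL-10/2-Trikine library 44.2% at Leiden resolution 2 and 43.9% with a marker gate per cell, in place of 45.9%. That of the Trdc-negative cells, 7.63%, 3.54% and 5.37%, depended on which cells were counted. It was 23.6%, 6.28% and 15.5% with the gate per cell, 28.2%, 9.90% and 20.4% with both clusters pooled, and 46.1%, 27.3% and 33.3% in the NK cluster. Asking for at least 2 Cd3 UMIs gave 5.90% under mono-IL-10.

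Ratios of the 7 members follow on the log2 scale. In NK cells IL-10/2-Trikine over mono-IL-10, -0.16, became -0.34 at resolution 2, -0.41 with the gate, -0.083 without Mki67 cells, -0.091 with TMM and -0.077 with median-of-ratios scaling. Klra1 turned to 0.45 in cells without T cell receptor, Cd4 or Cd8 UMIs. The combination over IL-10/2-Trikine, -0.06, turned to 0.079 at resolution 2 and 0.091 with the gate and was -0.11 without Mki67 cells, and Klra5 turned to 0.016 in cells without T cell receptor, Cd4 or Cd8 UMIs.

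In the Trdc-negative cells the first ratio, 0.97, was 1.10 without the highest doublet scores, 0.71 at resolution 2, 1.10 with the gate, 1.14 with TMM and 1.10 with median-of-ratios scaling. It was 0.49 with both clusters pooled and 0.038 in the NK cluster, where Klra9 turned to -0.10 and -0.32. The second ratio, -0.44, was -0.49 without the highest doublet scores and -0.53 with the gate, without Mki67 cells and with TMM. It was -0.13 with both clusters pooled and 0.040 in the NK cluster, where Klra9 turned to 0.35 and 0.21, and in the NK cluster Klra1 turned to 0.040.

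In CD8 cells the first ratio, 2.46, was 1.499 at resolution 2, 1.44 with the gate, 1.24 without Mki67 cells, 2.68 with TMM and 2.63 with median-of-ratios scaling. Klra4 turned to -0.37, -0.43 and -0.43 in the first 3 of these, and Klra9 to -0.26 at resolution 2. The second ratio, -0.89, was -0.48 at resolution 2, -0.045 with the gate, -0.39 without Mki67 cells, -1.02 with the added clusters, -1.01 with TMM and -0.97 with median-of-ratios scaling. Klra1 turned to 0.27, Klra6 to 0.32 and Klra9 to 0.47 with the gate, and Klra9 to 0.14 at resolution 2.

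With no minimum of UMIs, the genes at least 2-fold higher and lower numbered 2358 and 2317 in place of 286 and 259 in NK cells, and 2696 and 1784 in place of 197 and 213 for the combination. Among the Trdc-negative cells they numbered 3261 and 2720 in place of 389 and 563, and 2543 and 2175 in place of 311 and 161. Counts under all alternatives were made for the library ratios of NK cells, Trdc-negative cells and CD8 cells. Of these, 231 of the first and 241 of the second comparison moved by less than their counting interval. A further 74 and 60 moved further in the same direction or nearer to equal, and 7 and 11 were counted as changing sign. Not every change of sign is in these counts. Klra4 in the Trdc-negative cells, at 0.997 in the first comparison, was at 1.12 with TMM scaling. Where a member had few UMIs, as Klra8 did in CD8 cells (13, 29 and 45), the counting intervals are wide.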

Other observations

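Cluster 8, an unnamed cluster rich in T cell markers with a Cd8a UMI in 46.2% of its cells, also held Ly49 transcripts. Its Cd3-positive cells (240, 1436 and 1166) had the 7 members at 163, 669 and 130 CPM in the mono-IL-10, IL-10/2-Trikine and combination libraries, with activating shares of 15.3%, 3.13% and 5.05%. The Cd3-negative cells of the cycling T cell-like cluster (21, 125 and 85) had 695, 845 and 785 CPM and activating shares of 50.6%, 26.6% and 37.7%.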
